A study of Mus musculus with 8 samples.

Results

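The genes described here encode the machinery that docks, primes and fuses synaptic vesicles at the presynaptic terminal. They are 37 genes chosen by name (SNARE proteins, their regulators, priming factors, active zone scaffolds, Rab3 proteins and vesicle proteins), out of 55450 genes with a row in the count tables. All 37 were found and all 37 passed the filter on low counts. Nuclear RNA was sequenced from nuclei of juvenile mouse cerebral cortex, sorted for fluorescence, with 1 cortex behind each library. In both groups Cre recombinase, expressed from a GABAergic neuron driver, switched on a loxP-controlled nuclear fluorescent reporter. Controls had the genotype Thra+/+. Mutants had the genotype Thra+/AMI, in which Cre also switches on a mutated Thra allele coding for a thyroid hormone receptor with dominant-negative action. The mutation is thus limited to GABAergic neurons, and the labels name neither the driver nor the age in days, sex or strain. Of 4 control and 4 mutant samples, mutants 7 and 10 had identical counts in all 21975 compared genes with a count, less than sampling noise would give, and they count as 1 sample here. The comparison is between controls 1 to 4 and mutants 6, 7 and 8.

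A synaptic vesicle fuses when a vesicle SNARE, a synaptobrevin such as VAMP1 or VAMP2, zips together with the plasma membrane SNAREs syntaxin-1 and SNAP-25. Munc13 and CAPS proteins prime the vesicle for this step, RIM, ELKS, bassoon, piccolo and liprin proteins build the active zone where it happens, and complexin holds the assembled SNAREs until calcium enters. In the cortex, fast-spiking parvalbumin neurons, the class named in the title of the series, are known for fast and tightly timed transmitter release.

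The sequence just upstream of the start site is shown for the 3 genes of this machinery that were called different in every alternative analysis: Vamp1 and Cplx1, which fell, and Unc13b, which rose. The sequences are from the RefSeq promoter table for GRCm38.p6, 5′ to 3′ on the strand of the gene. Capitals mark the GC box, GGGCGG or its reverse complement CCGCCC. For Vamp1 the last 30 bases of the 250-base window lie in an annotated exon and are left out.
Vamp1 (chr6:125215331-125215550, plus strand): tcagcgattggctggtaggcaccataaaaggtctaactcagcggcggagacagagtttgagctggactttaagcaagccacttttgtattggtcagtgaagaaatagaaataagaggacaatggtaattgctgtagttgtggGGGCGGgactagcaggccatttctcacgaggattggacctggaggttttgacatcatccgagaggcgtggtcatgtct
Cplx1 (chr5:108550028-108550277, minus strand): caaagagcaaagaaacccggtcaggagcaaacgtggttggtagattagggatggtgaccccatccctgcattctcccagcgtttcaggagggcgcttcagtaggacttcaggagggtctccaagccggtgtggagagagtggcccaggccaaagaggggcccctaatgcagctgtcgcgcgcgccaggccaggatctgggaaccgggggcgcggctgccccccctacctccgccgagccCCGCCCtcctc
Unc13b (chr4:43058703-43058952, plus strand): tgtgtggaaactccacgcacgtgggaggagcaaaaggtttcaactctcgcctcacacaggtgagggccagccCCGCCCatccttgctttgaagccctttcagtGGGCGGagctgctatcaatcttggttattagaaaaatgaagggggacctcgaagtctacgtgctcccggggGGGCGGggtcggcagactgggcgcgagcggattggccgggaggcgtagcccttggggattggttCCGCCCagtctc
The Unc13b stretch holds 4 GC boxes and those of Vamp1 and Cplx1 hold 1 each. Among windows of 250 bases, 22 of the 37 windows that the table lists for 30 of the genes held a GC box on either strand, against 32.7% of all 32851 windows. The half-site of the thyroid hormone receptor, AGGTCA on either strand, was in the windows of Erc2 and Syngr1 and in 4607 of all 32851 windows. It was not in the printed stretches. Its direct repeat, the same 6 letters again after a spacer of any 4 bases, was in 0 windows of these genes and in 0.0152% of all windows. These matches describe letters in a short window and say nothing about binding.

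Total counts ran from 10747169 to 13804734 per library, and levels are given as CPM, counts relative to a library size scaled by edgeR's TMM factors. The sorted class was checked on marker genes. Summed over 7 GABAergic markers, the level was 2368 to 2650 CPM in controls and 2282 to 2735 CPM in mutants, with Dlx1 listed at 0 in every library. Summed over 7 glutamatergic markers it was 76.8 to 143 CPM in controls and 81.9 to 135 CPM in mutants, and 0 of these 7 were called by edgeR, with 0 at an unadjusted p under 0.05. The level of Thra itself averaged 114 ± 9.35 CPM over the controls (SD, n = 4) and 87.5 ± 9.39 CPM over the mutants (SD, n = 3). Its log2 fold change of -0.39 (edgeR adjusted p 0.0543) adds up both alleles and does not check the labels. Thra passed the threshold in 7 of 15 alternative fits. These included the fits without control 1 (edgeR adjusted p 0.0275), without control 4 (edgeR adjusted p 0.0149) and with DESeq2 (adjusted p 0.0284). The others were limma-voom, an offset from genomic length, 1 surrogate variable and the fit without controls 1 and 4.

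Release genes changed in both directions. In edgeR's quasi-likelihood test with Benjamini-Hochberg adjustment over all 16448 tested genes, 8 of the 37 release genes (21.6%) were called at an adjusted p under 0.05, where 9.42% of all tested genes were called. Unc13b, Doc2a, Doc2b, Rims3 and Stx1a rose in mutants (5 genes, where 4.63% of all tested genes rose). Vamp1, Cplx1 and Rims4 fell (3 genes, where 4.78% of all tested genes fell). The median log2 fold change (mutant relative to control) was -0.08 over the 37 genes and -0.01 over all tested genes. In 12 of the 37 genes (32.4%) the control and mutant libraries did not overlap in CPM, where 22.0% of all tested genes had no overlap. The members were chosen with results of these data known, so no test of the set was made. The summed share of reads in the 37 genes ranged from 1.00% to 1.14% of a control library and from 0.998% to 1.02% of a mutant library, so the groups overlapped. The plot of fold changes shows each gene with its interval.

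**Figure D1:**
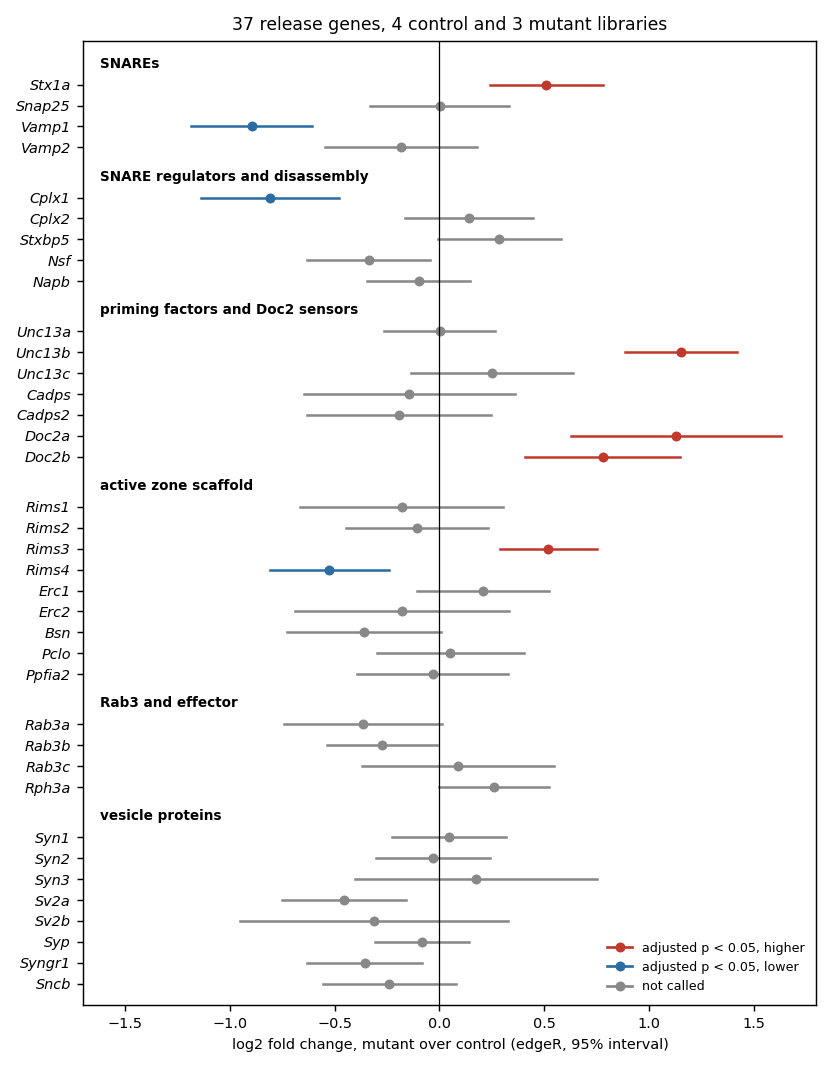
Log2 fold change of mutant over control (points) with 95% intervals (lines) from edgeR for the 37 release genes, grouped by role, from 4 control and 3 mutant libraries. The 5 red genes were called higher and the 3 blue genes lower, and the grey intervals of the 29 other genes all lie between -1 and 1.

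Leaving out a single mutant lowered the count of called release genes to 4 (mutant 6), 5 (mutant 7) and 5 (mutant 8), while all tested genes gave 1549 calls with every library and 766, 734 and 816 without these. Vamp1, Cplx1 and Unc13b were called in each fit that left out 1 library. Without controls 1 and 4, which differ from each other along gene length as described further on, 12 release genes were called, 5 higher and 7 lower, where 16.7% of all tested genes were called (8.17% higher, 8.48% lower). The 8 genes were among them, and the 4 added genes were Bsn, Nsf, Rab3a and Sv2a, all lower. DESeq2 called 9 release genes, 5 higher and 4 lower, where it called 12.1% of all tested genes (5.96% higher, 6.13% lower). The limma-voom fit called 10, 5 higher and 5 lower, where it called 19.1% of all tested genes (9.59% higher, 9.54% lower). With 1 surrogate variable 16 were called, 7 higher and 9 lower, where 21.4% of all tested genes were called (10.5% higher, 10.9% lower).

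**Figure D2:**
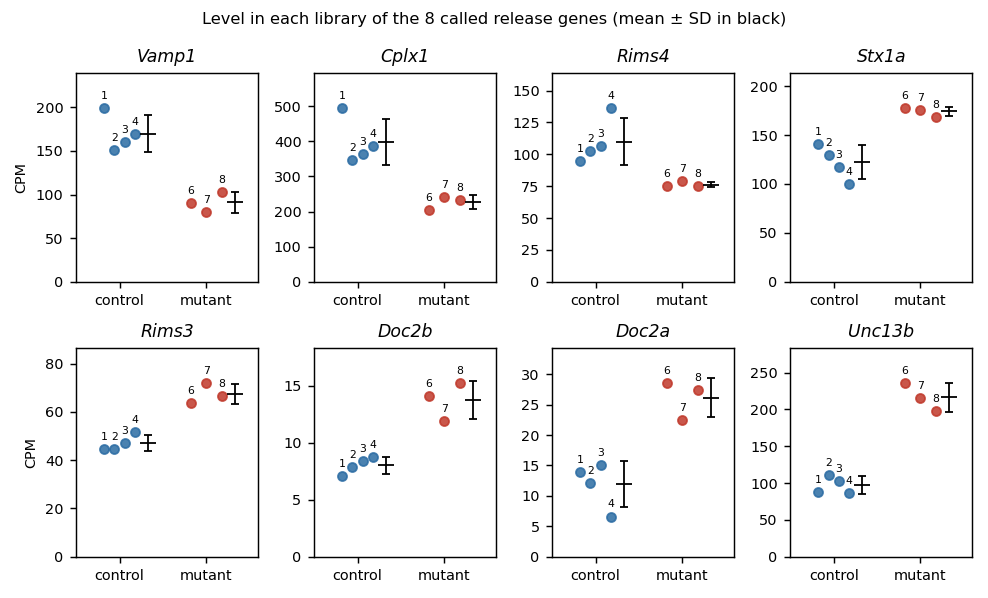
CPM in each library of the 8 called release genes, with controls in blue and mutants in red, library numbers above the points, and the mean ± SD in black; each axis starts at 0. In all 8 genes every mutant library lies on 1 side of all 4 control libraries.

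Markers of the classes of GABAergic neurons moved with the genotype. Summed over 6 parvalbumin neuron markers, the level was 797 to 975 CPM in controls and 353 to 428 CPM in mutants, with 4 of 6 called lower and 0 higher. Kcnc1 was the largest of these in every library, at 457 to 648 CPM in controls and 176 to 230 CPM in mutants. Tac1 (log2 fold change -0.0044) and Pthlh (-0.28) were not called, and their groups overlapped. Pvalb was at 35.7 to 47.8 CPM in controls and at 2.58, 1.29 and 1.56 CPM in mutants. Summed over 6 somatostatin neuron markers the level was 893 to 1051 CPM in controls and 1455 to 1762 CPM in mutants, with 3 of 6 called higher (Sst, Calb1 and Crhbp). Grin3a had the largest mean in both groups, 447 CPM in controls and 605 CPM in mutants. Its groups did not overlap, but it was not called (log2 fold change 0.44, edgeR adjusted p 0.186). Elfn1 (0.43) and Nos1 (0.04) were not called, and their groups overlapped. For 6 VIP neuron markers the sums were 209 to 381 and 251 to 269 CPM (1 called higher, 2 lower), and for 6 LAMP5 neuron markers 1062 to 1198 and 1035 to 1333 CPM (2 lower). Reln was the largest LAMP5 marker in every library, at 534 to 752 CPM in controls and 756 to 1003.5 CPM in mutants. Its log2 fold change was 0.43 and that of Ndnf 0.09, neither called. Lamp5 (-0.53) and Id2 (-0.46) were not called either, while Npy (-0.64) and Cplx3 (-1.39) were called lower. Of the glial and vascular markers, the astrocyte sum was 235 to 308 CPM in controls and 183 to 207 CPM in mutants (1 of 5 lower, Gfap listed at 0). The called gene, Slc4a4, was the largest in every library, at 168 to 248 CPM in controls and 133 to 157 CPM in mutants. In each of the other tested astrocyte markers the groups overlapped. The microglial sum was 13.2 to 18.1 and 18.2 to 21.7 CPM (0 of 5 called by edgeR, 1 at an unadjusted p under 0.05, P2ry12 listed at 0). Among the tested microglial markers only Csf1r (log2 fold change 0.61) had groups without overlap. The oligodendrocyte sums (167 to 204 and 185 to 219 CPM, 1 of 7 higher) and endothelial sums (44.9 to 94.8 and 46.2 to 67.5 CPM, 0 of 6 called, 0 at an unadjusted p under 0.05) overlapped. Whether the shifts in marker levels have a part in the falls of Vamp1, Cplx1 and Rims4 was not tested. The same holds for the rises of Unc13b, Stx1a, Rims3 and the Doc2 genes. In RNA from pooled nuclei, fewer nuclei of a class and less RNA per nucleus cannot be told apart.

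Among the SNAREs, the vesicle SNARE Vamp1 fell and the plasma membrane SNARE Stx1a rose, while Vamp2 and Snap25 were not called. Vamp1 was at 199 CPM in control 1, 151 in control 2, 160.1 in control 3 and 169 in control 4, and at 90.4, 79.8 and 103 CPM in mutants 6, 7 and 8. Every mutant lay below every control. Its log2 fold change was -0.90 (SE 0.13, edgeR adjusted p 0.00119), 1.86-fold lower in mutants. Vamp1 lies on chromosome 6, 125215551 to 125245964 (GRCm38, GENCODE M21), and shares no exon base with another gene.

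Vamp2, the synaptobrevin of most forebrain synapses, was at 382, 275, 295 and 256 CPM in controls 1 to 4 and at 216, 306 and 277 CPM in mutants. The groups overlapped, and the log2 fold change was -0.18 (95% interval -0.55 to 0.18). Snap25 was the most abundant SNARE per length, and its 748 to 955 CPM in controls and 826 to 899.9 CPM in mutants gave a log2 fold change of 0.00 (95% interval -0.33 to 0.33). Neither interval reaches the size of the fall in Vamp1.

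Stx1a, syntaxin-1A, was at 141, 129.9, 117 and 100.4 CPM in controls 1 to 4 and at 178, 176 and 169 CPM in mutants. All mutants lay above all controls, and the log2 fold change was 0.51 (SE 0.12, edgeR adjusted p 0.022). Stx1a lies on chromosome 5, 135023482 to 135051100. The call ended without control 2 (0.54, adjusted p 0.0518), without control 3 (0.50, adjusted p 0.0781), and without mutant 6, 7 or 8 (adjusted p 0.0964, 0.0968 and 0.0765).

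Complexin-1 fell, whereas complexin-2 was not called. Cplx1, the complexin of many inhibitory and fast synapses, was at 495, 347 (control 2), 363 and 386 CPM in controls 1 to 4 and at 205, 243 and 234 CPM in mutants. The lowest control was above the highest mutant. The log2 fold change was -0.81 (SE 0.15, edgeR adjusted p 0.00534), 1.75-fold lower in mutants. Cplx1 lies on chromosome 5, 108518554 to 108550024. Cplx2 was at 58.7 to 67.3 CPM in controls and 51.9 to 79.3 CPM in mutants, with a log2 fold change of 0.14 (95% interval -0.16 to 0.45). Control 1 was the highest library for Cplx1, and without it the log2 fold change was -0.68 (adjusted p 0.00136).

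The proteins that take SNARE complexes apart or block them were not called by edgeR. Nsf, the ATPase that pulls used SNARE complexes apart, was at 403 to 518 CPM in controls and at 354, 353 and 358 CPM in mutants. These groups did not overlap, but the log2 fold change of -0.34 (SE 0.13) had an edgeR adjusted p of 0.152. Nsf passed with limma-voom (-0.30, adjusted p 0.0291), without controls 1 and 4 (-0.30, adjusted p 0.0258) and with 1 surrogate variable (-0.36, adjusted p 0.00361). Napb, its SNAP adaptor in neurons, had a log2 fold change of -0.10 (95% interval -0.34 to 0.14). Stxbp5, tomosyn, which binds syntaxin in place of the vesicle SNARE, went from 232 ± 33.3 CPM (SD, n = 4) to 284 ± 12.9 CPM (SD, n = 3), with a log2 fold change of 0.29 and an edgeR adjusted p of 0.234. Its groups did not overlap either, and Stxbp5 passed with 1 surrogate variable (0.27, adjusted p 0.0319).

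Unc13b, which encodes the priming factor Munc13-2, rose. It was at 87.6, 111, 103 and 87.0 CPM in controls 1 to 4 and at 236, 215 and 197 CPM in mutants 6, 7 and 8. The lowest mutant was well above the highest control. The log2 fold change was 1.15 (SE 0.12, edgeR adjusted p 0.000134), 2.22-fold higher. Over 15 alternative fits it ran from 1.01 to 1.22. Unc13b lies on chromosome 4, 43058953 to 43264871.

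The other Munc13 genes did not pass. Unc13a, the main Munc13 of cortical synapses, was at 286 to 318 CPM in controls and 281 to 334 CPM in mutants, with a log2 fold change of 0.00 (95% interval -0.26 to 0.26). Unc13c had a log2 fold change of 0.25 (95% interval -0.13 to 0.64) and was lowest in control 1, at 105 CPM against 161 to 201 CPM in the other controls. The CAPS genes Cadps and Cadps2, which prime dense core and synaptic vesicles, had log2 fold changes of -0.14 and -0.19, with 95% intervals from -0.65 to 0.36 and from -0.63 to 0.25. Cadps was among the most abundant members, at 775 to 1663 CPM in controls and 979 to 1167 CPM in mutants.

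Both Doc2 genes rose. They encode calcium sensors of spontaneous and asynchronous release, and in controls were the lowest of the 37 genes in CPM. Doc2a was at 13.9, 12.1, 15.1 and 6.61 CPM in controls 1 to 4 and at 28.6, 22.5 and 27.4 CPM in mutants, without overlap. Doc2a lies on chromosome 7, 126847416 to 126852705. Its log2 fold change was 1.13 (SE 0.23, edgeR adjusted p 0.00876), and without mutant 6 it was 1.06 with an adjusted p of 0.0563. Its exons share 39.4% of their bases with Ino80e on the opposite strand, so part of its counts is uncertain. Ino80e had a log2 fold change of -0.09 and was not called (edgeR adjusted p 0.78).

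Doc2b was at 7.06, 7.86, 8.37 and 8.79 CPM in controls 1 to 4 and at 14.1, 11.9 and 15.2 CPM in mutants. Again every mutant was above every control. Doc2b lies on chromosome 11, 75768966 to 75796049. Its log2 fold change was 0.78 (SE 0.17, edgeR adjusted p 0.0131). The call ended without mutant 6 (0.76, adjusted p 0.0638) and without mutant 8 (0.71, adjusted p 0.0818).

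In the active zone, the small RIM genes moved in opposite directions and the large scaffolds were not called. Rims3 and Rims4 encode short RIM isoforms that keep the C-terminal C2 domain but lack the parts of RIM1 that bind Rab3 and Munc13. Rims3 was at 44.5, 44.7, 47.3 and 51.6 CPM in controls 1 to 4 and at 63.8, 72.0 and 66.5 CPM in mutants. All mutants were higher, by 0.52 on the log2 scale (SE 0.11, adjusted p 0.00884 in edgeR). The gene lies on chromosome 4, 120854816 to 120896579. Without mutant 7 the Rims3 call ended (0.48, adjusted p 0.0611).

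Rims4 was at 94.4, 102, 106 and 136 CPM in controls 1 to 4 and at 74.9, 78.9 and 75.0 CPM in mutants. All mutants were lower, with -0.53 on the log2 scale (SE 0.13, adjusted p 0.0244 in edgeR). The gene lies on chromosome 2, 163859751 to 163918683. The Rims4 call ended without control 3 (-0.54, adjusted p 0.0582) and without mutant 6, 7 or 8 (adjusted p 0.108, 0.0915 and 0.115).

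The long RIM genes Rims1 and Rims2, the central organisers of the active zone, had log2 fold changes of -0.18 (95% interval -0.66 to 0.31) and -0.11 (95% interval -0.45 to 0.23). The ELKS genes Erc1 and Erc2 had log2 fold changes of 0.21 (95% interval -0.11 to 0.52) and -0.18 (95% interval -0.69 to 0.33). Of the giant scaffolds, piccolo (Pclo) was at 0.05 (95% interval -0.30 to 0.40) and bassoon (Bsn) at -0.36 (95% interval -0.73 to 0.01). Bsn was lowest in control 1 at 125.5 CPM and highest in control 4 at 221 CPM, with mutants at 123 to 139 CPM, so the groups overlapped. It was called without control 1 (-0.47, edgeR adjusted p 0.0366) and without controls 1 and 4 (-0.30, adjusted p 0.0307). Liprin-α2 (Ppfia2), a scaffold that recruits these proteins, had a log2 fold change of -0.03 (95% interval -0.39 to 0.33), and 24.5% of its exon bases are shared with Acss3 and a further gene.

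Of the 4 genes of the Rab3 group, 0 were called by edgeR, 0 by DESeq2 and 0 by limma-voom, and 1 had an unadjusted p under 0.05 in edgeR. Over all tested genes 22.5% had an unadjusted p under 0.05. Rab3 proteins are small GTPases that tie vesicles to RIM and to rabphilin. Rab3a, the most abundant of them per length, was at 278, 191, 188 and 156 CPM in controls 1 to 4 and at 145, 163 and 165 CPM in mutants, with a log2 fold change of -0.36 (95% interval -0.74 to 0.01). The library control 4 lay among the mutants, and without it Rab3a was called (-0.47, edgeR adjusted p 0.0329). Rab3a was also called without controls 1 and 4 (-0.27, adjusted p 0.0496). Rab3b had a log2 fold change of -0.27, Rab3c of 0.09 and the effector Rph3a, rabphilin, of 0.26, and in each of these the libraries of the groups overlapped. With 1 surrogate variable 3 of the 4 genes were called: Rab3a (-0.28, adjusted p 0.0307), Rab3b (-0.28, adjusted p 0.0274) and Rph3a (0.24, adjusted p 0.048). That fit called 21.4% of all tested genes.

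Of the 8 vesicle proteins, 0 were called by edgeR, 1 each by DESeq2 and limma-voom, and 2 had an unadjusted p under 0.05 in edgeR. Over all tested genes DESeq2 called 12.1% and limma-voom 19.1%, and 22.5% had an unadjusted p under 0.05 in edgeR. The gene called by DESeq2 and limma-voom was Sv2a, a transporter-like glycoprotein of all synaptic vesicles. Sv2a was at 374, 290.2, 316 and 268 CPM in controls 1 to 4 and at 218, 236 and 228 CPM in mutants. Every mutant was below every control, and the log2 fold change was -0.46 (SE 0.14, edgeR adjusted p 0.0577). The adjusted p was 0.0119 with DESeq2, 0.00339 with limma-voom, 0.0366 without a filter on low counts, 0.00187 without controls 1 and 4, and 0.00748 without control 4.

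Syngr1, synaptogyrin-1, was at 216 to 257 CPM in controls and 160.0 to 202 CPM in mutants, also without overlap, with a log2 fold change of -0.36 and an edgeR adjusted p of 0.107. The synapsins, which tether vesicles in the reserve pool, lay near 0: Syn1 at 0.04 (95% interval -0.23 to 0.32), Syn2 at -0.03 (95% interval -0.30 to 0.24) and Syn3 at 0.18 (95% interval -0.40 to 0.75). Synaptophysin (Syp) was the member with the narrowest interval, at -0.08 (95% interval -0.31 to 0.14), with 16.8% of its exon bases shared with Gm14703. Sncb, β-synuclein, was at -0.24 (95% interval -0.56 to 0.08). Sv2b, the SV2 form more typical of glutamatergic neurons, was the least precise, at -0.31 (95% interval -0.95 to 0.33). Sv2b spanned 20.8 to 48.6 CPM among controls and 17.3 to 32.6 CPM among mutants. Its direction turned with limma-voom (0.11) and without controls 1 and 4 (0.28), and Sv2b was not called in either.

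For the 29 genes that were not called, the log2 fold changes ran from -0.46 to 0.29, and the 95% intervals of all 29 lay within 1 log2 unit of 0. For 10 of them the interval lay within 0.5 log2 units. A missed threshold does not show that the groups were alike, and these intervals give the sizes that the libraries leave possible.

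Because several of the genes are close relatives with overlapping functions, the balance within 15 pairs was computed in each library as the log2 ratio of their CPM, with 1 CPM added to each. With 4 against 3 libraries the smallest two-sided p of the exact permutation test is 0.0571, so no pair can pass 0.05. Adjusted over the 15 pairs, the smallest value was 0.143. In 6 pairs the control and mutant ratios did not overlap.

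**Figure D3:**
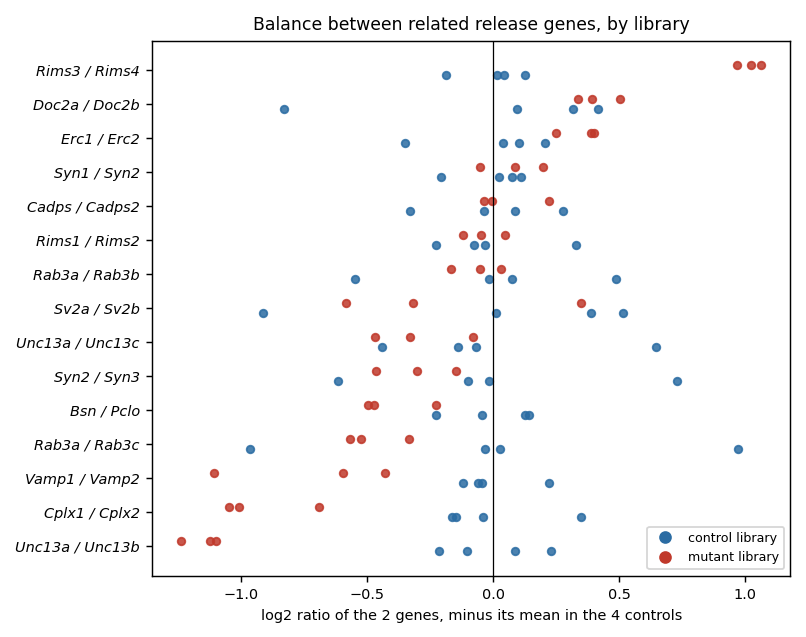
Log2 ratio between the 2 genes of each of 15 pairs in every library, minus the mean of the 4 controls, with controls in blue and mutants in red. The mutant ratios lie outside the range of the controls in 6 pairs, from Unc13a over Unc13b, lower by 1.15, to Rims3 over Rims4, higher by 1.02. For Bsn over Pclo the groups nearly touch, and for Erc1 over Erc2 they lie close.

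The ratio of Unc13a to Unc13b went from a log2 value of 1.62 ± 0.197 in controls (SD, n = 4) to 0.47 ± 0.0736 in mutants (SD, n = 3), a difference of -1.15. The ratio of Rims3 to Rims4 went from -1.20 ± 0.134 (SD, n = 4) to -0.18 ± 0.0494 (SD, n = 3), a difference of 1.02. Rims4 thus exceeded Rims3 by more in every control than in any mutant. The differences were -0.91 for Cplx1 over Cplx2 and -0.71 for Vamp1 over Vamp2. For Bsn over Pclo the difference was -0.40 and for Erc1 over Erc2 it was 0.35. The groups of Bsn over Pclo nearly touched, with the lowest control ratio at -1.7247 and the highest mutant ratio at -1.7269. For Erc1 over Erc2 the highest control was at -1.827 and the lowest mutant at -1.784. Each of these 6 pairs gave the smallest p that the exact permutation test allows, 0.0571. In the other 9 pairs, among them Rims1 over Rims2 (-0.04), Syn1 over Syn2 (0.08) and Cadps over Cadps2 (0.06), the ratios of the groups overlapped.

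Per kilobase of exon, which allows levels of different genes to be compared, the group means of Cplx1, Rims1 and Snap25 were 182, 133 and 127 CPM per kb in controls, the highest of the 37 genes. In mutants they were 104, 117 and 127 CPM per kb. Their order varied between libraries of a group: Rims1 exceeded Cplx1 in control 4, and Cplx1 exceeded Rims1 in mutant 8, so it is not settled. The mean of Stx1a was 45.8 CPM per kb in controls, where it was below Vamp2 (79.3) in every library. In mutants the means were 65.3 for Stx1a and 69.9 for Vamp2, and in mutant 6 Stx1a was the higher, so their order there is not settled. Vamp1 was at 16.7 CPM per kb in controls and 8.96 in mutants, and Unc13b at 4.28 and 9.50. The lowest gene in every control was Doc2b, with a mean of 1.84 CPM per kb. In mutants the means of Sv2b and Doc2b were 3.01 and 3.15 CPM per kb, and which was lower differed between libraries. These levels rest on annotated exons. If reads in introns were counted too, long genes stand higher than they would on exons alone.

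The libraries of the controls differed along gene length, and this touched the long genes of the set. Over all tested genes, Spearman's rho between genomic length and the log2 ratio of control 1 to control 4 was -0.61, and over the 37 release genes it was -0.87. These rhos describe genes that share the same pair of libraries. The fold change of mutant over control had a rho with length of 0.12 over the 37 genes. Of 12 release genes longer than 200 kb, control 4 was the highest control in 11 and control 1 the lowest in 10. Syn3 was at 28.2 CPM in control 1 and 87.6 CPM in control 4, and Erc2 at 499 and 1139.8 CPM. Rab3a, a short gene, ran the other way. Of these 12 long genes 1 was called, Unc13b, for which controls 1 and 4 were alike at 87.6 and 87.0 CPM.

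**Figure D4:**
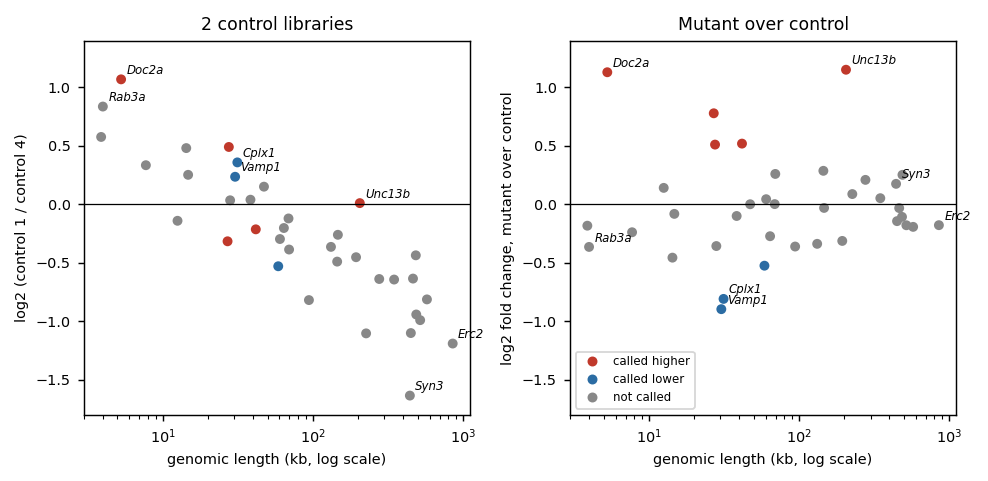
Genomic length of the 37 release genes (log axis) against the log2 ratio of control 1 to control 4 (left) and against the log2 fold change between mutants and controls (right), on the same vertical scale. The ratio between the control libraries falls with length (rho -0.87), from 1.07 in Doc2a to -1.64 in Syn3, while the fold change shows little slope (rho 0.12).

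With an offset that takes out the smooth trend of each library with gene length, the median SE of the 12 long genes went from 0.19 to 0.10, while their median log2 fold change was 0.01 before and -0.02 after. Under this offset 13 release genes were called, 6 higher and 7 lower, where 16.7% of all tested genes were called (8.18% higher, 8.56% lower). The 8 genes were among the 13. The 5 added genes were Stxbp5 (0.27, edgeR adjusted p 0.0369), Nsf (-0.35, adjusted p 0.00763), Bsn (-0.35, adjusted p 0.0386), Syngr1 (-0.37, adjusted p 0.0175) and Sv2a (-0.44, adjusted p 0.00295). Unc13a stayed near 0 (-0.02, SE 0.10), as did Snap25 (-0.01, SE 0.09).

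Other genes of the release pathway were read from 7 lists with 117 genes, of which 109 were tested. Vamp3, Syngr2 and Itsn1 were listed at 0 in every library, Vamp8, Cplx4, Unc13d and Sytl4 had too few counts, and Vamp7 was not analysed here. Of the 109 genes 18 were called (16.5%, where 9.42% of all tested genes were called), 12 higher and 6 lower. The median log2 fold change of the 109 genes was 0.00. The count was 11 without control 2, 10 without mutant 6, and 9 without mutant 7 or mutant 8.

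The calcium sensors of the synaptotagmin family had 4 of 9 members called (44.4%, where 9.42% of all tested genes were called). Syt2, the fast sensor of parvalbumin neurons, had a log2 fold change of -2.18 and Syt3 of -1.05, while Syt5 (0.94) and Syt10 (1.11) rose. The Syt10 call ended without mutant 7 (adjusted p 0.054) and mutant 8 (adjusted p 0.0691). Among further SNAREs and regulators, Stx2 rose (0.44) and the complexin Cplx3 fell (-1.39), 2 of 18 tested genes (11.1%, near the 9.42% of all tested genes). Leaving out mutant 8 ended the call of Cplx3 (adjusted p 0.0548). The call of Stx2 was lost on leaving out control 2, control 3 or a single mutant, with adjusted p-values of 0.0501 to 0.11.

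In the wider active zone list and in the list of the Rab3 and Rab27 cycle, 2 of 14 tested genes each were called (14.3%). Over all tested genes 9.42% were called. The liprin-β gene Ppfibp1 rose from 51.3 ± 10.5 CPM (SD, n = 4) to 129 ± 5.26 CPM (SD, n = 3), a log2 fold change of 1.33. Lin7b, a scaffold adaptor with 24.4% of its exon bases shared with other genes, fell (-0.64). The Lin7b call was lost on leaving out control 2, control 3 or a single mutant, with adjusted p-values of 0.0568 to 0.137. Of 14 genes of the Rab3 and Rab27 cycle, Rab3d rose from 15.4 ± 2.00 to 30.9 ± 1.18 CPM (log2 fold change 1.00) and the synaptotagmin-like effector Sytl5 rose (0.76). Leaving out mutant 6 (adjusted p 0.0973) or mutant 7 (adjusted p 0.0579) ended the call of Sytl5. The relatives of Rab3d, Rab3a, Rab3b and Rab3c, were not called, and their difference from Rab3d was not tested.

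Of 16 vesicle membrane and filling genes, 4 were called (25.0%, where 9.42% of all tested genes were called), 3 higher and 1 lower. Among them Sv2c (0.43) and Sncg (1.77) rose and the vesicular glutamate transporter Slc17a8 fell (-0.98). Sncg rested on 3 to 11 reads per library in controls and 15 to 26 reads in mutants. The calls of Sv2c, Sncg and Slc17a8 each ended without control 2 or any 1 of the mutants, and those of Sv2c and Slc17a8 also without control 3. With the mean log2 CPM of the glutamatergic markers as a covariate, the calls of Sv2c (adjusted p 0.0558) and Slc17a8 (adjusted p 0.0537) ended. Without controls 1 and 4 the call of Sncg ended (1.22, adjusted p 0.111). The adjusted p-values without control 2 were 0.112 for Sv2c, 0.0677 for Sncg and 0.101 for Slc17a8. Without single mutants they ran from 0.0867 for Slc17a8 without mutant 6 to 0.181 for Sv2c without mutant 6. Without control 3 they were 0.085 for Sv2c and 0.0546 for Slc17a8.

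Of 26 vesicle recycling genes, which rebuild vesicles after fusion, 0 were called by edgeR, 5 had an unadjusted p under 0.05, and DESeq2 called 0 and limma-voom 4. Over all tested genes 22.5% had an unadjusted p under 0.05 in edgeR, DESeq2 called 12.1% and limma-voom called 19.1%. Among 12 genes of dense core vesicles, which carry neuropeptides, 4 were called (33.3%, where 9.42% of all tested genes were called), in both directions. The granin gene Chgb fell from 117 ± 19.0 to 60.9 ± 7.26 CPM (log2 fold change -0.94). Vgf rose from 79.7 ± 4.84 to 157 ± 32.3 CPM (0.98), Pcsk1, a prohormone convertase, from 13.8 ± 3.59 to 31.0 ± 3.58 CPM (1.17), and Ptprn from 157 ± 17.0 to 218 ± 8.02 CPM (0.47). Ptprn was no longer called without control 2 (adjusted p 0.0824) or mutant 6, 7 or 8 (adjusted p 0.105, 0.111 and 0.0767).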

How the data were processed

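The authors deposited raw counts of reads per gene, without normalization. The submitters' processing notes name Bowtie2 2.5.3 and the builds mm10 and GRCm38, and the labels name SMART-Seq v4 cDNA, which carries no molecular identifiers, and Nextera XT libraries. The counting program and its use of strand are not given in the sources used here. All 55450 gene identifiers matched GENCODE M21, which gave symbols, coordinates and exon lengths, and 0 lines named no gene. The table of mutant 10 repeats that of mutant 7 and was left out.

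Counts of 4 controls and 3 mutants were fitted with edgeR 4.0.16 in R 4.3.3 (filterByExpr, least count 10, least total 15, TMM, glmQLFit with robust dispersion, glmQLFTest, two-sided, Benjamini-Hochberg over 16448 genes). The SE was the log2 fold change divided by the square root of F, and 95% intervals used the moderated degrees of freedom. Alternatives were RLE size factors, DESeq2 1.42.0, limma-voom 3.58.1 with quality weights, no filter, an offset from genomic length, 1 surrogate variable (sva 3.50.0), a glutamatergic covariate, and leaving out libraries. Fits with edgeR, edgeR with the offset or the surrogate variable, DESeq2 and limma-voom were run on simulated counts with known changes. These counts had no trend with gene length, so they cannot test how the offset or the surrogate variable handles such a trend. Named genes are the 37 members, Thra, Pvalb and every called gene of the 7 pathway lists. Some results are not reported here. Uncalled markers, Ino80e and untested list genes were named after their values were seen. The members and lists were chosen with earlier results of these data known. The labels give each library its own cortex, and before TMM scaling 1 CPM was about 10.7 reads in the smallest library.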

Additional observations from a re-analysis of the deposited data

Results flagged for a closer look

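In each of 72 values (57 genes and 15 paralog ratios), the highest and the lowest of the 4 controls were compared with the remaining controls by Dixon's ratio, the distance to the closest library over the whole spread, at its 95% critical value. In 2 values a control stood apart, and chance gives about 1 in 20. For Sncb, control 1 had 65.2 CPM while the other controls had 51.7 to 53.0 CPM (ratio 0.906). For Syt2, control 4 had 85.7 CPM while the other controls had 52.0 to 56.9 CPM (ratio 0.857). Mutants were too few for this comparison.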

How the results depend on the processing

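No paired analysis was possible because the control and mutant samples share no replicate number. The number of all genes called, 1549, was 3147 with limma-voom, 2753 with the length offset, 2778 without controls 1 and 4 and 3527 with 1 surrogate variable, and 734 to 2347 without single libraries. Of release genes, 8 called became 13 with the offset, 16 with 1 surrogate variable and 4 to 10 without single libraries. Those called higher numbered 2 to 5 without single libraries, and those called lower, 3 in the reported fit, were 5 with limma-voom, 7 with the offset, 7 without controls 1 and 4, 9 with 1 surrogate variable and 2 to 5 without single libraries. All 8 genes kept their call in the 8 alternatives that did not leave out 1 library. Pathway genes called, 18, became 33 with limma-voom, 29 without controls 1 and 4, 36 with 1 surrogate variable and 9 to 26 without single libraries. The median of the release genes was -0.094 to 0.046 without single libraries. Log2 fold changes, none of them called, changed sign for Snap25 (-0.014 with the offset, -0.0071 with 1 surrogate variable, -0.00063 with the glutamatergic covariate), Unc13a (-0.016 with limma-voom, -0.018 with the offset), Cadps2 (0.031 without controls 1 and 4), Ppfia2 (0.0083 with limma-voom) and Sv2b (0.11 with limma-voom, 0.28 without controls 1 and 4). Without single libraries the sign changed for Snap25 (-0.057 to 0.053), Unc13a (-0.085 to 0.050), Cadps (-0.29 to 0.071), Cadps2 (-0.32 to 0.046), Rims1 (-0.31 to 0.019), Erc2 (-0.34 to 0.065), Pclo (-0.043 to 0.17), Ppfia2 (-0.13 to 0.071), Rab3c (-0.051 to 0.34), Syn1 (-0.0057 to 0.13), Syn2 (-0.069 to 0.012) and Syn3 (-0.041 to 0.47), and for the ratios of Rims1 over Rims2 (-0.11 to 0.070), Rab3a over Rab3b (-0.24 to 0.10), Sv2a over Sv2b (-0.49 to 0.016) and Cadps over Cadps2 (-0.049 to 0.15). Causes were not tested. The lowest count of a release gene in any library was 82 reads, for Doc2a in control 4. In controls Doc2a had 82 to 199 reads and Doc2b 89 to 110. How far counting error limits the precision of the Doc2 genes was not tested.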

Other observations

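The SD of log2 CPM was lower in the 3 mutants than in the 4 controls for 28 of the 37 genes, with a median of 0.119 against 0.209. Over all 16448 tested genes the SD was lower in mutants for 70.0% of genes, with medians of 0.145 and 0.227. The median absolute difference between controls 2 and 3 alone was 0.1 log2 units over the 37 genes and 0.149 over all tested genes. As a difference between 2 libraries, it is not on the scale of these SDs.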
